A study of Mus musculus with 4 samples.

Results

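The genes described here are 8 markers and regulators of the primitive endoderm, chosen by name: Gata4, Gata6, Sox7, Sox17, Foxa2, Pdgfra, Dab2 and Sparc. They were found on the arrays through the RefSeq accession that each probe carries, which gave 8 of 33378 genes or transcripts and 16 of 41160 probes. All 8 passed the filter of being well above background on at least 1 array, Gata4 through the marrow array alone and Sox7 through the 2 iPS arrays alone. RNA came from E14 embryonic stem (ES) cells of strain 129 (n = 1), from induced pluripotent stem (iPS) lines 7 and 13, reprogrammed from bone marrow mononuclear cells (n = 2), and from bone marrow mononuclear cells themselves (BMMNCs, n = 1), a mixture of marrow white cells and their precursors. Lines and BMMNCs are of strain C57BL/6, and the mice behind the lines carry an Oct4-EGFP transgene, so strain and origin cannot be told apart from the iPS and ES groups. ES and iPS cells were grown on irradiated embryonic fibroblasts (feeders) with leukaemia inhibitory factor, and the feeders were reduced by preplating on gelatin before RNA isolation. The agents used for reprogramming, the age of the mice and the number of animals pooled are not given in the sources used here, and nothing states that the lines came from separate animals. The p-values thus reflect how far apart these few samples lie, part of which may be technical.

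The primitive endoderm is the layer that forms beside the epiblast in the mouse blastocyst and gives rise to the visceral and parietal endoderm of the yolk sac. FGF signalling through its receptors and the ERK pathway favours Gata6 over Nanog in inner cell mass cells, and Gata6 acts upstream of Sox17, Gata4 and Sox7 in the progressive commitment of the layer. Pdgfra marks its precursors, Dab2 is an endocytic adaptor needed for the ordering of its epithelium, and Sparc is a matrix protein made abundantly by parietal endoderm. Cultures of mouse ES cells can hold a minority of cells with primitive endoderm features. Several of the 8 genes are also expressed elsewhere: Sparc and Pdgfra in fibroblasts, Sox7 and Sox17 in endothelium, and Dab2 in macrophages and megakaryocytes.

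GATA factors bind short GATA-core sites, so start regions of members were read for them. Gata6 was left out of this search, so nothing is said here about its start region. For the other members, RefSeq promoter sequences (build GRCm38.p6, 250 bases before to 50 after a start) were looked up. They matched 4 genes, Foxa2, Pdgfra, Dab2 and Sparc, with 7 starts in all. Both strands were searched for the letters AGATAA with their variant AGATAG, and likewise for TGATAA with its variant TGATAG, and 29.8% of 32851 promoters of 300 bases hold at least 1 of them. Among the members, the first listed start of Dab2 holds 2 matches and the third of Foxa2 holds 1, while the other 5 starts hold none. AACAAT, a core letter string of Sox sites, is in 10.7% of promoters and in none of the 7. The forkhead strings searched were TGTTTAC, the similar string TGTTTGC and the related string TGTTTGT, which occur in 14.2% of promoters and in 1 of the 7, the first start of Foxa2. Printed here are the 2 starts with GATA letters, for the contrast between them, and that of Sparc, the gene with the largest difference between iPS lines and marrow, which holds none. They lie at chr15:6299539-6299838, plus strand (Dab2), chr2:148045415-148045714, minus strand (Foxa2) and chr11:55420031-55420330, minus strand (Sparc). They are written 5′ to 3′ on the gene's strand with GATA matches in capitals.
Dab2: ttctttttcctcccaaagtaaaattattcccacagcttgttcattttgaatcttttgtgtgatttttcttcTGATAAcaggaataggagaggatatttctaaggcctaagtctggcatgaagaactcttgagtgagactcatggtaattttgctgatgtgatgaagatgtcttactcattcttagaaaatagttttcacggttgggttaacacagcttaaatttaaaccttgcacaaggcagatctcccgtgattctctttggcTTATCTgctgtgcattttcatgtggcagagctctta
Foxa2: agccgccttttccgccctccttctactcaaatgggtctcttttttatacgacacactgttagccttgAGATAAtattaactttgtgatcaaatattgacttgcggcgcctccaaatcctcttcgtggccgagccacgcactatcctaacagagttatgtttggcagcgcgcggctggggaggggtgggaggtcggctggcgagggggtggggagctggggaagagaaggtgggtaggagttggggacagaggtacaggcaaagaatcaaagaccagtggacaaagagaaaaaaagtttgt
Sparc: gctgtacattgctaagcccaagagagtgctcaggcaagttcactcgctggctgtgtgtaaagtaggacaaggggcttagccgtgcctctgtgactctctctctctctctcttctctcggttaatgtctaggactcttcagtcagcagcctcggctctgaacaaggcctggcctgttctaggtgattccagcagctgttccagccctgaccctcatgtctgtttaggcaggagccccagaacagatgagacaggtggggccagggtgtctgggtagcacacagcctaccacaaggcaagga
These are matches of letters, and the arrays do not measure binding.

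Signal was read on single-colour Agilent arrays, on which 54.6% to 59.0% of probes were well above background, the scanner software's mark for a spot clearly brighter than its surroundings. Levels below are log2 processed signals minus the array's 75th percentile, which lay at signals of 1048 (ES cells), 1120 (line 7), 1123 (line 13) and 602 (BMMNCs). The dimmest probe with the mark had a signal of 29.8, 25.6, 34.8 and 19.7 on the same arrays. Some probes without the mark lay above these values, such as that of Sox7 in ES cells at 35.3. A dim gene thus has only an approximate limit. Relative to the 75th percentile these limits are -5.14, -5.45, -5.01 and -4.93. Differences were tested with limma, a linear model fitted to 21232 genes or transcripts, whose spread comes from lines 7 and 13 alone. The single ES and BMMNC arrays are taken to vary as the lines do. A gene passed at a Benjamini-Hochberg adjusted p under 0.05. In RNA from a whole culture, fewer cells of a kind and less RNA per cell cannot be told apart.

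Of the GATA zinc finger factors, Gata6 was present in the pluripotent cultures and Gata4 was not detected there. The main Gata6 probe had signals of 369 in ES cells, 592 in line 7, 547 in line 13 and 14.2 in BMMNCs. It was well above background on every array but the last. The pluripotent cultures thus stood apart from marrow, with both iPS lines above ES cells. Another Gata6 probe gave 33.6, 61.5, 47.7 and 4.62, above background in the iPS lines alone, and the third (12.2, 19.2, 15.6 and 10.2) was dim on all arrays. The main Gata4 probe had signals of 30.7, 25.8, 38.5 and 27.4 in the same order. It carried the mark on the marrow array alone, and the 4 values lie close together and show no level in ES or iPS cells. The other Gata4 probe, with 9 spots, was dim everywhere, at 7.24, 6.11, 8.21 and 4.74.

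Sox7 and Sox17 are closely related HMG-box factors of the SoxF group, and their patterns differed. Sox7, with a single probe, had a signal of 35.3 in ES cells, 350.1 in line 7, 363 in line 13 and 4.74 in BMMNCs. It was well above background in both iPS lines and on neither of the other arrays. Sox17 had signals of 70.8, 64.0, 73.7 and 6.52 on its main probe. It was low but above background in ES cells and both lines, with the ES value between those of the lines on the signal scale. Relative to each array's 75th percentile its ES level, -3.89, lay just above line 13 (-3.93) and line 7 (-4.13). Another Sox17 probe gave the same order with 53.6, 46.7, 54.1 and 5.63, and the third was dim on all arrays (8.69, 7.19, 9.93 and 5.64).

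Foxa2, a forkhead factor of endoderm, was read by 10 spots per array with mean signals of 315 in ES cells, 319 in line 7, 363 in line 13 and 5.40 in BMMNCs. Spots ran from 291 to 336 in ES cells, 296 to 340.2 in line 7 and 329 to 456 in line 13, so the cultures overlap spot by spot, and marrow (4.06 to 9.98) lies far below them. Pdgfra, the receptor for PDGF-A, also had 10 spots, with means of 120.0 in ES cells, 153 in line 7, 143 in line 13 and 4.80 in BMMNCs. Its spots ran from 113 to 127 in ES cells and from 139 to 159 in line 7, without overlap, while those of line 13 (126 to 166) reached just into the ES range. A further Pdgfra probe had signals of 19.6, 41.4, 37.5 and 5.62 and was above background in line 7 alone.

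Dab2 had signals of 974 in ES cells, 1058 in line 7, 948 in line 13 and 20.7 in BMMNCs on its main probe. Those of the pluripotent cultures lay close together, with ES cells between the lines. Its other probe (29.3, 40.6, 32.9 and 5.14) was above background in line 7 alone. Sparc was bright on both of its probes in every pluripotent culture. One gave 27874, 39515, 38172 and 85.4, with the mark on all arrays, and its partner 35035, 41680, 39720 and 17.3, dim in BMMNCs. The probes thus differed on marrow, where one carried the mark and the other did not, and on both the iPS lines were above ES cells.

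**Figure D1:**
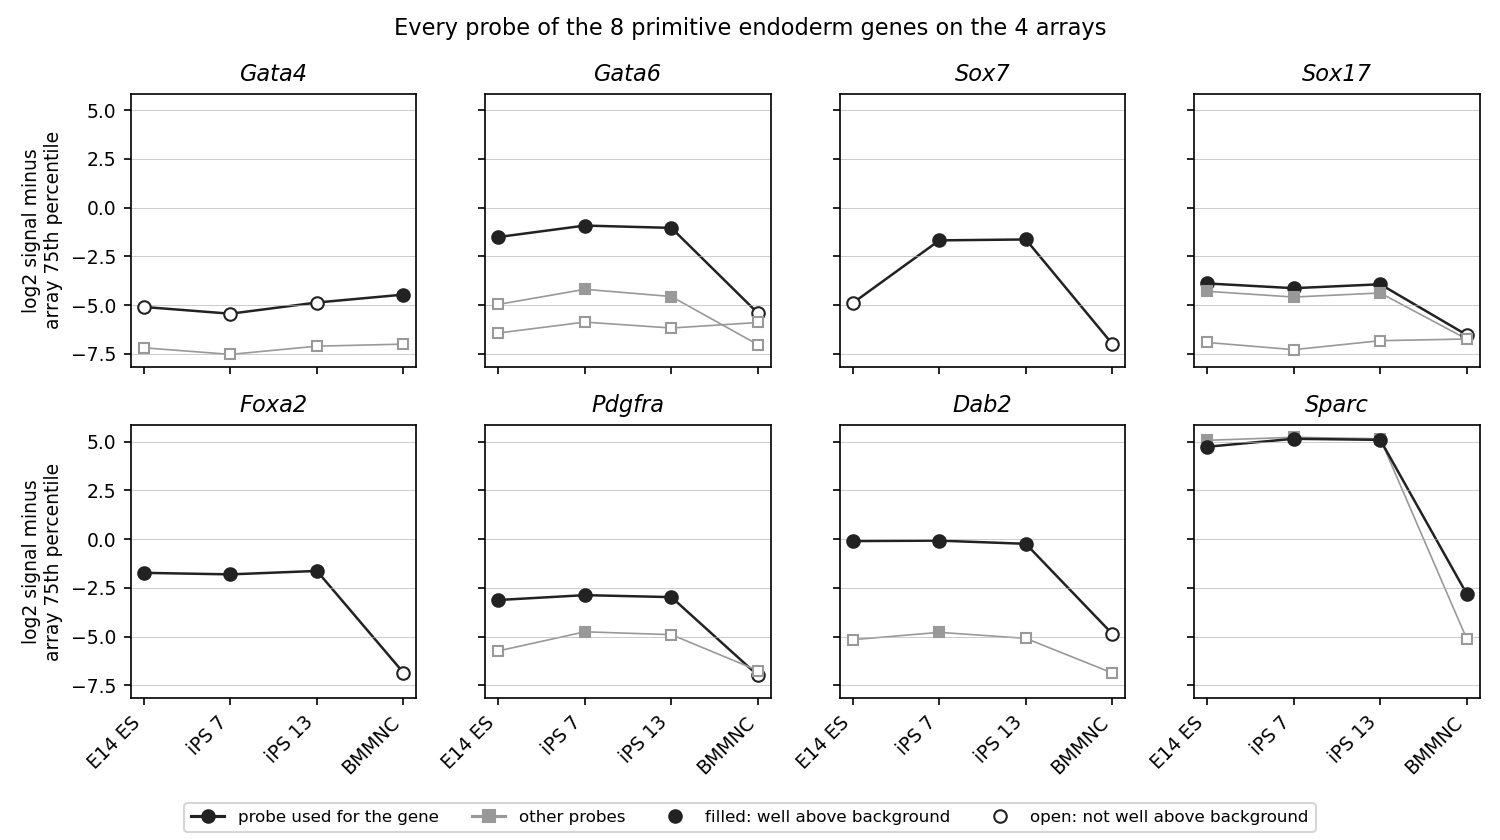
Level of each probe of the 8 genes (log2 signal minus the array's 75th percentile, vertical axis) on the 4 arrays (horizontal axis); black circles are the probe used for the gene, grey squares other probes, and open symbols are not well above background. Sox7 is the gene that is open in ES cells and filled in both iPS lines on its used probe, and Gata4 is filled in BMMNCs alone.

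The iPS lines were first compared with ES cells, the reference pluripotent line. Sox7 passed the test as higher, and none of the other 7 genes passed. Sox7 was tested because it is above background in the iPS lines, so its call is not independent of that filter. Sox7 went from -4.89 in ES cells to -1.68 in line 7 and -1.63 in line 13, a log2 difference of 3.24 (SE 0.095, limma adjusted p = 0.0426). That is 9.44-fold with the unmarked ES signal taken as measured, and it is no lower limit. Over all genes tested, 1.93% were called higher and 2.79% lower in the iPS lines, and 0.0426 is also the smallest adjusted p of any gene. The call was lost with the authors' value table (adjusted p = 0.0554) and without the filter on dim genes (adjusted p = 0.156). With the normexp background correction the log2 difference was smaller, at 1.98, and passed there.

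Gata6 had levels of -1.51 (ES cells), -0.92 (line 7) and -1.04 (line 13). It differed by 0.53 (SE 0.11, 95% interval 0.16 to 0.89, unadjusted), short of the threshold (limma adjusted p = 0.107). Sparc differed by 0.38 (SE 0.096, interval 0.062 to 0.70, adjusted p = 0.131 in limma), from 4.73 in ES cells to 5.14 and 5.09 in lines 7 and 13. Its other probe gave 0.12 (adjusted p = 0.484 in limma). Both genes passed with an intensity trend in limma's variance (adjusted p of 0.00268 and 0.00108) and with normexp (0.0236 and 0.0244), and Sparc also among genes above background on every array (0.00839). Pdgfra differed by 0.20 (interval -0.15 to 0.55) and Sox17 by -0.14 (interval -0.60 to 0.32). For Foxa2 the difference was 0.010 (interval -0.42 to 0.44) and for Dab2 -0.059 (interval -0.47 to 0.35). The sign of Dab2 turned with the mean of its probes and with its other probe, and that of Foxa2 with normexp. Median scaling raised all differences alike and so also turned Dab2. Each of these 4 intervals reaches at least 0.44 on one side of 0, so differences of that size are not shown to be absent. Gata4, dim in ES and iPS cells, has no fold here.

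Without a test, both iPS lines lay above ES cells for 4 of the 8 genes (Gata6, Sox7, Pdgfra and Sparc), against 37.1% of all genes tested. Sox17 was below ES cells in both lines, as were 47.3% of all genes. The median difference over the 8 genes was 0.11, beside -0.058 over all genes. Counted by probe, 1 of the 13 tested probes of the members passed, that of Sox7, where 1.98% of 27258 tested probes were called higher and 2.88% lower. The further Gata6 and Pdgfra probes gave 0.59 and 0.91 (limma adjusted p = 0.189 and 0.0623), the same sign as the main ones.

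**Figure D2:**
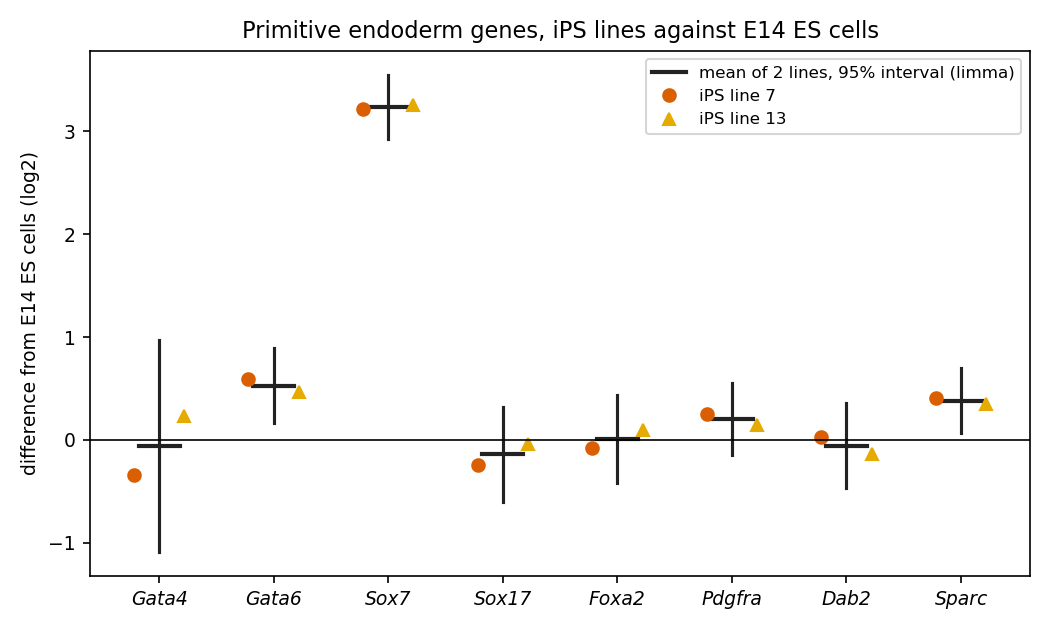
Difference from E14 ES cells on the log2 scale (vertical axis) for each gene (horizontal axis), with iPS line 7 as circles, line 13 as triangles, and the mean of both lines with limma's unadjusted 95% interval as black bars. Sox7 sits at 3.24, and the intervals of Gata4, Sox17, Foxa2, Pdgfra and Dab2 include 0.

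Against marrow, the cells of origin of the iPS lines, 7 of the 8 genes rose and Gata4 did not pass. Sparc rose by 7.93 (SE 0.096, 244-fold, limma adjusted p = 0.000715), from -2.82 in BMMNCs, and its other probe gave at least 1109-fold. The remaining 6 genes were dim in BMMNCs, and all of them but Dab2 have lower bounds. Dab2 was 26.0-fold higher with its unmarked marrow signal taken as measured, which is no lower limit. Gata6 was at least 15.5-fold higher, Sox7 at least 9.71-fold and Foxa2 at least 9.25-fold. For Dab2 and these genes limma adjusted p lay between 0.000715 and 0.00085. Sox7 was tested through its iPS values alone, so here too its call is not independent of the filter. Pdgfra was at least 4.01-fold higher (limma adjusted p = 0.000841) and Sox17 at least 1.87-fold (adjusted p = 0.00208). With normexp, which adds a constant of 50 to every signal, the log2 differences were smaller than these folds on the log2 scale. They were 2.95 for Dab2, 2.26 for Gata6, 2.10 for Sox7, 1.86 for Foxa2 and 1.09 for Pdgfra. Those 5 still passed, while Sox17 gave 0.17 and did not (adjusted p = 0.116).

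Such calls were common, since 37.9% of all genes tested were higher and 37.8% lower in the iPS lines than in BMMNCs at the same threshold. The median difference over the 8 genes was 4.57 as fitted and 3.24 with dim genes at their bound, against -0.0099 as fitted over all genes. By probe, 12 of 13 tested passed with a higher level in iPS cells, beside 40.0% of all probes tested (36.4% lower). The Sox7 probe and the further tested probes of Gata6, Pdgfra and Dab2 entered through iPS arrays alone. Gata4 had levels of -5.44, -4.86 and -4.46 in line 7, line 13 and BMMNCs (limma difference -0.69, adjusted p = 0.14). It was -0.62 with normexp (adjusted p = 0.00175), but the gene was tested through its marrow value alone and is dim in the iPS lines, so no fall is read from it.

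The ES array and both iPS arrays lay above the marrow array for 7 of the 8 genes, all but Gata4, as they did for 44.7% of all genes. For Sox7 the ES and marrow values are both dim. With 1 array on each side there is no test. Gata6, Sox17, Foxa2, Pdgfra, Dab2 and Sparc were at least 4-fold higher in ES cells by measured level with the mark in ES cells, 6 of 8 genes, where 17.2% of all genes were that much higher and 15.8% that much lower. With the marrow level at its bound, folds of at least 10.8 (Gata6), 9.18 (Foxa2), 3.50 (Pdgfra) and 2.06 (Sox17) remain. Pdgfra and Sox17 thus pass 4-fold by their dim marrow levels alone. Dab2 was 27.1-fold higher with its unmarked marrow signal taken as measured, which is no lower limit. With normexp only Dab2 (3.02) and Sparc (6.70) stayed past 4-fold, with Gata6 at 1.77, Foxa2 at 1.87, Pdgfra at 0.97 and Sox17 at 0.24. Gata6 (1.81) and Sox17 (1.64) also dropped below it with the mean of a gene's probes. Sparc was 187-fold higher. Sox7, dim on both arrays, has no fold here. The iPS and ES differences from marrow share the marrow array and are not independent.

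Between the lines the 8 genes were close. None reached a 2-fold difference, a size that 1.32% of all genes passed toward line 7 and 1.11% toward line 13. Line 7 was above line 13 for Dab2 (0.16), Gata6 (0.12), Pdgfra (0.10) and Sparc (0.055), and below it for Sox7 (-0.047), Foxa2 (-0.18) and Sox17 (-0.20). Gata4, dim on both, has no difference to read. The largest of these, for Sox17, is a 1.15-fold difference, of the size of its own difference from ES cells.

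The wider set of genes around the primitive endoderm was examined by role. In FGF and PDGF signalling, 10 of 11 genes were tested and none passed between iPS and ES cells (median 0.24). Fgfr2, a receptor linked to the primitive endoderm choice, was at -3.25 in ES cells and at -2.21 and -2.42 in lines 7 and 13 (limma difference 0.94, adjusted p = 0.0759). Fgfr1 and Fgfr3 differed by -0.057 and -0.080. Pdgfa, the ligand of Pdgfra, was at 4.70, 5.41 and 5.53 (difference 0.77, adjusted p = 0.0719). Against BMMNCs 8 of these genes rose and 1 fell, and Pdgfa rose by 6.42 (SE 0.11).

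Of the other endoderm transcription factors, 6 of 12 were above background anywhere. Hnf4a and Foxa1, which act in visceral endoderm and liver, were not well above background on any array, nor were Foxa3, Gata5, Mixl1 and Sox18. Between iPS and ES cells 2 of the 6 rose. Eomes, a T-box factor of trophoblast, visceral endoderm and primitive streak, rose from -3.67 to -1.65 in line 7 and -1.61 in line 13 (difference 2.04, limma adjusted p = 0.0426). Cited1, a transcriptional co-regulator, rose by 1.28 (adjusted p = 0.0449). Against BMMNCs 3 rose and 2 fell, Hhex by 4.08 on the log2 scale.

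Visceral endoderm genes, mostly secreted or absorptive proteins, moved both ways between iPS and ES cells, with 2 risen and 2 fallen of 9 tested. Apoa2, an apolipoprotein, rose by 2.26 (from -4.65 to -2.53 and -2.24) and Cldn6, a tight junction gene, by 1.42. Apom fell by 1.55 and the retinol carrier Rbp4 by 1.12, with limma adjusted p between 0.0439 and 0.0463 for all 4. Afp, the classic visceral endoderm product, was at -1.82 in BMMNCs and dim in ES and iPS cells, at least 10.7-fold lower in the iPS lines. It was tested through its marrow value alone, so its call is not independent of that filter. Ttr and Apoa1 were dim on all arrays. Against BMMNCs 7 rose and 2 fell, with Cdh1 up by 3.81.

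Genes of parietal endoderm and its basement membrane varied widely in level. In ES cells they ran from -3.53 to 6.62, with a median of 1.46 beside -1.03 over all genes tested. All 19 on the array were above background in ES cells and both lines. Laminin genes Lama1, Lamb1 and Lamc1 differed between iPS and ES cells by -0.045, 0.41 and -0.10 and did not pass. Stra6, a retinol transporter gene, fell by 1.61 (limma adjusted p = 0.049), 1 of 19 tested. The level of the keratin gene Krt18 was 2.43 for ES cells and 4.92 and 4.03 for lines 7 and 13 (difference 2.05, adjusted p = 0.118). The list's median difference was 0.27. Against BMMNCs 16 rose and 1 fell, with Serpinh1, a collagen chaperone, up by 7.94 and Lamb1 at least 168-fold higher. ES and iPS cells were grown on feeders, and the part of fibroblast RNA in these levels was not tested.

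Among secreted signals of the extraembryonic endoderm, Lefty1, an inhibitor of Nodal signalling, fell from 4.09 in ES cells to 1.98 and 1.81 in lines 7 and 13 (difference -2.19, limma adjusted p = 0.043), the 1 call of 5 genes tested. Cer1, a defining product of anterior visceral endoderm, was dim on all 4 arrays. Dkk1 differed by 0.38 and did not pass. All 5 rose against BMMNCs, with Bmp4 up by 5.19.

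**Figure D3:**
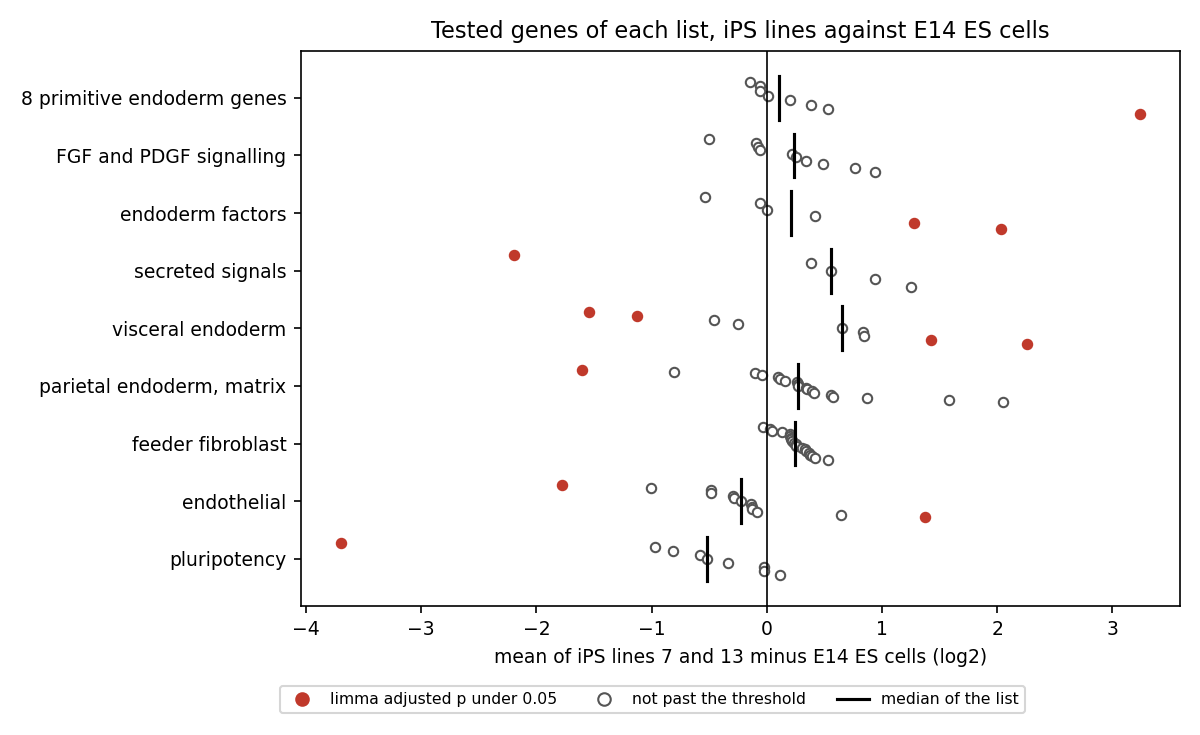
Mean of iPS lines 7 and 13 minus E14 ES cells on the log2 scale (horizontal axis) for each tested gene of 9 lists (vertical axis), filled where limma's adjusted p was under 0.05; black bars are list medians. Sox7 is the 1 filled point among the 8 primitive endoderm genes, whose median is 0.11.

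Other cell types that express some of these genes were followed by marker lists. All 20 feeder fibroblast markers, among them Col1a1, Col1a2 and Col3a1, were well above background in ES cells and both iPS lines. Relative to the 75th percentile their summed signal was 621 in ES cells, 771 in line 7, 697 in line 13 and 196 in BMMNCs. Of these 20 markers 19 were higher in iPS than in ES cells (median 0.24, largest Timp2 at 0.53) and none passed. Over all genes tested, 9257 of 21232 were higher. All 20 were higher in line 7 than in line 13 (median 0.15), as were Sparc, Pdgfra, Gata6 and Dab2, and 9089 of all 21232 genes. Parietal endoderm genes (17 of 19) and macrophage markers (10 of 11) also leaned to line 7. Few endothelial (2 of 13) and no pluripotency genes (0 of 9) were higher there. By sign alone, Sparc, Pdgfra and Gata6 shared this direction in both comparisons. Dab2 shared it between the lines only, Sox7 and Foxa2 against ES cells only (mean of the lines), and Sox17 in neither. The part of fibroblast RNA in these differences was not tested. Against BMMNCs 19 fibroblast markers rose, with Col1a2 up by 9.24, and S100a4 fell.

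Endothelium also expresses Sox7 and Sox17. Of 14 endothelial markers 9 were above background in ES cells and in each iPS line, among them Pecam1 and Kdr, and 11 in BMMNCs. Their summed signal relative to the 75th percentile was 8.85 in ES cells, 6.88 in line 7, 7.33 in line 13 and 5.31 in BMMNCs. Cdh5, Tie1, Erg and Emcn were dim in all 3 pluripotent cultures, and Sox18, the third SoxF factor, was dim on all 4 arrays. Over the endothelial list 1 of 13 tested genes rose and 1 fell between iPS and ES cells (median -0.22). Esam rose by 1.37 and Mmrn2 fell by 1.77, while Pecam1 and Kdr differed by -0.29 and -0.22. The part of endothelial RNA in the Sox7 and Sox17 values was not tested. Against BMMNCs 5 rose and 4 fell, Mmrn2 among the former with 2.67. Of the latter, Cdh5 and Tie1 were above background in BMMNCs alone, so their calls are not independent of the filter.

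Blood lineages that express Dab2 or Sparc were evident in marrow. All 10 megakaryocyte markers on the array were above background in BMMNCs, where Dab2 was dim. Of these, 9 fell in iPS cells against BMMNCs, with Itga2b, Pf4 and Ppbp at -3.92, -2.33 and -3.79. All 11 macrophage markers were above background in BMMNCs, and 10 were in ES cells and both lines. Of the 11, 9 fell and 1 rose in iPS cells. Cybb, Adgre1 and Mrc1 differed by -9.16, -3.62 and -2.14 and fell, and C1qa, at -0.48, did not pass. Vwf fell by 1.80 between iPS and ES cells, the 1 megakaryocyte call there, and no macrophage marker passed, with Fcgr1 at 0.31.

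Marrow stroma and bone markers gave 7 risen and 2 fallen of 9 tested against BMMNCs, Spp1 by 6.78 and Cxcl12 by 2.17, and Kitl was at least 1.99-fold higher. None passed between iPS and ES cells (median 0.39, with Foxc1 at 0.53), and Lepr was dim on all arrays. Pluripotency genes checked the cultures' labels. For Pou5f1, Sox2 and Zfp42 the iPS lines exceeded BMMNCs by folds of at least 329, Dppa5a rose by 11.94, and 8 of 9 tested rose while 1 fell. Between iPS and ES cells Zfp42 fell by 3.70, the 1 call of 9, and the list's median was -0.52 with 1 of 9 genes higher in the iPS lines.

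**Figure D4:**
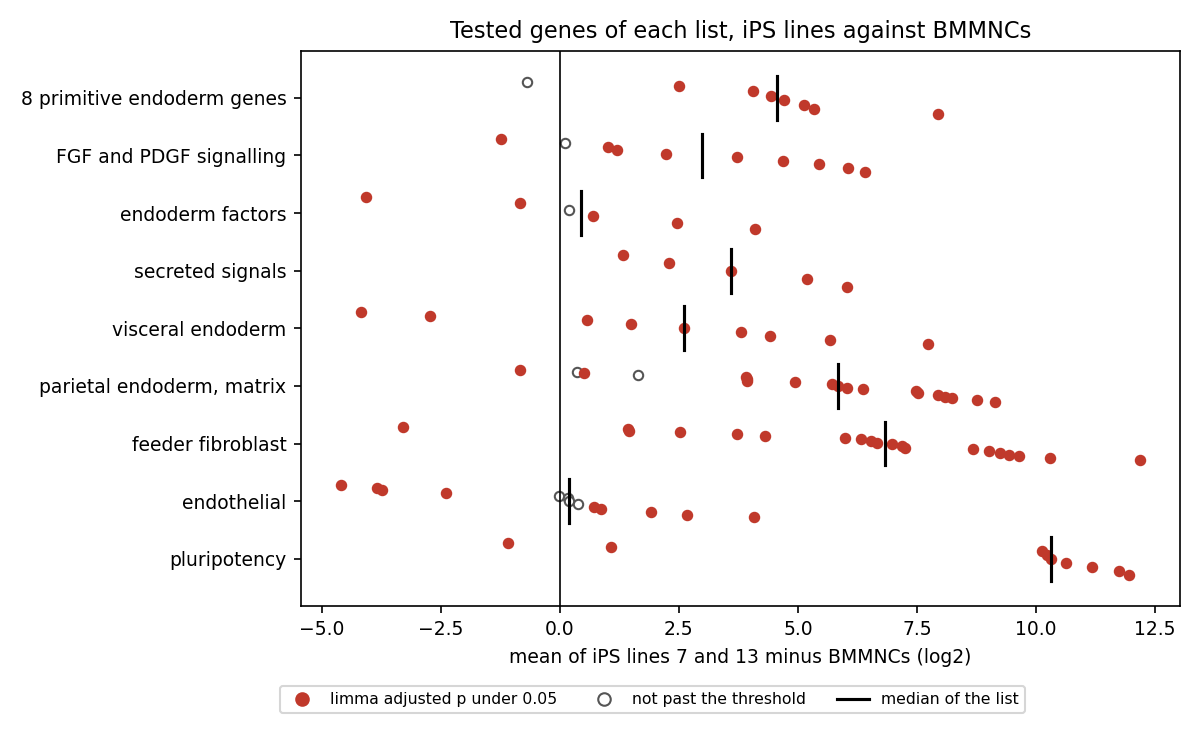
Mean of iPS lines 7 and 13 minus BMMNCs on the log2 scale as fitted (horizontal axis) for the tested genes of the same 9 lists (vertical axis), with filled points past limma's adjusted p of 0.05 and black bars at list medians. The 8 primitive endoderm genes have a median of 4.57, and Gata4 is the open point among them at -0.69; values of genes dim in BMMNCs are fitted values and no bounds.

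Genes with the most similar pattern were found among those above background on the same arrays, by the root mean square distance between levels over 4 arrays after centring each gene, as a description. Sparc lay nearest to Cnn1, Serpinh1 and Ltbp2, at distances of 0.040, 0.050 and 0.097 on the log2 scale, with 12 of 10004 genes within 0.25. For Gata6 they were Arg1, Mtmr11 and Tfpi2 (0.026 to 0.040), and for Pdgfra Col4a5, Arhgap29 and Sardh (0.033 to 0.051). Foxa2 lay nearest to Nmnat2, Pawr and Jag2, Dab2 to Mpdz, Tspan18 and Fndc4, and Sox17 to Aloxe3, Cibar2 and Crygc. Each of these 5 genes had 117 to 141 of 1459 genes within 0.25, so these patterns were common. For Sox7, 93 other genes were above background in the iPS lines alone. Its nearest were Crisp1, Sh3rf2 and Speer4f1 at 0.58, 0.59 and 0.83, and none lay within 0.25, with distances that include 2 arrays on which it was dim. Gata4, above background in BMMNCs alone with 630 others, lay nearest to Olfr1122, Kcne1 and Omp.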

How the data were processed

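RNA of 4 samples, labelled with Cy3, was measured with 1 Agilent mouse array each (per the labels' protocols). The arrays share 1 slide and were scanned together (file headers). Spots were read with Agilent Feature Extraction 9.5, per the submitters' processing notes (9.5.1.1 per the file headers). The deposited values are intensities, background-subtracted and detrended within each array, with flags (0 or 1, another unit) for spots well above background, per the file headers. No spot was saturated. The authors' value table, also intensity, was found to be the processed signal times 1 factor per array, linear and not centred by gene, with medians of 139.9, 135.9, 133.6 and 106.2 (ES cells, line 7, line 13, BMMNCs); how the factors were set is unknown.

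Control spots and outlier spots were left out, spots of a probe averaged on the log2 scale and the array's 75th percentile subtracted. Probes were named through accessions without versions by RefSeq (GRCm38.p6), 22948 of 41160. A probe was above background when a share of 0.5 of its spots was. A gene took its probe of highest mean level. limma 3.58.1 in R 4.3.3 fitted a mean per group, with 1 residual degree of freedom and a prior of 1.80 degrees of freedom and SD 0.0934. The fit was tried on simulated data with the same spread in every group. That cannot show whether the single ES and BMMNC arrays vary as the lines do. For a gene dim throughout a group, "at least N-fold" sets the bright mean against, per array, the higher of its own signal and the lowest signal above background. Where its own signal is the higher, the fold is no lower limit. The arrays' number limits all precision. The members and lists were chosen with earlier results of these data known. Named genes are the members, the first 3 of each list on the array and the largest difference measured on both sides, except 1 gene that is not reported here; Cited1, Cldn6, Apom, Rbp4, Stra6, Esam, S100a4, Foxa3, Gata5, Mixl1, Sox18, Tie1, Erg and Emcn were named after their values were seen. The files hold no mean signal, so normexp used the median signals, a choice made after seeing the data. Alternatives are in the closing section.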

Additional observations from a re-analysis of the deposited data

Results flagged for a closer look

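Among the 8 genes, 2 had the iPS lines on opposite sides of ES cells while above background on all 3 arrays. Foxa2 was -0.078 in line 7 and 0.099 in line 13 relative to ES cells. Dab2 was 0.023 in line 7 and -0.14 in line 13. The difference between the lines was not tested, since each is 1 array.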

How the results depend on the processing

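The call of Sox7 between iPS and ES cells rests on settings, as do calls there in general. In all, 1002 genes passed; 613 did with the mean over a gene's probes, 5123 with normexp, 5772 among genes above background on every array and 7719 with an intensity trend. In limma the authors' table gave 0 (6634 genes had an unadjusted p under 0.05), and so did leaving dim probes unfiltered (4718). Sparc, the 1 member above background on every array, passed when only such genes were fitted (adjusted p = 0.00839). Of the 8 genes, 1 passed in the chosen setting, 3 with normexp and 3 with an intensity trend (Sox7, Gata6 and Sparc), and 0 with the authors' table or without the filter; the cause was not tested. Sox7 ranged from 1.98 to 3.33 over 8 settings and passed in 6, and was 3.26 without line 7 and 3.22 without line 13, with no test. Signs turned for Gata4 with quantile normalization (0.046) and median scaling (0.034), for Foxa2 with normexp (-0.0085), and for Dab2 with median scaling (0.034), the mean of its probes (0.082) and its other probe (0.22); none of these passed in any setting. Median scaling moved every such difference by 1 constant, so its turns are no property of these genes. Against BMMNCs 7 of 8 genes passed, but only Sparc (1 gene) where the mark was required on all 4 arrays, since it alone of the 8 met that. Sox7 against BMMNCs did not pass with ES and iPS arrays as 1 group (4.26, adjusted p = 0.0944). The count of genes 4-fold apart between ES cells and BMMNCs, 7013, fell to 3838 with normexp and 2922 above background on every array, and that of genes 2-fold apart between lines, 517, to 120 and 30. The median difference of all genes from BMMNCs moved from -0.0099 to -0.22 with median scaling, -0.20 with normexp and 0.12 with the authors' table. Counts called cannot be had without either line, since no spread is left. No paired analysis was possible because ES cells and BMMNCs have 1 array each and no label pairs arrays. Dim signals limit Gata4, Sox17, Sox7 in ES cells, and the marrow levels other than those of the main Sparc and Gata4 probes.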
